A study of Mus musculus with 6 samples.

Results

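Blockade of PD1 was compared with isotype antibody during a second exposure of T cells to their peptide, across 11877 of the 47643 gene identifiers counted. The genes were those with at least 10 reads summed over all 6 samples of the experiment, a rule that uses no contrast between groups, and 4 of the 6 samples, 2 per group, enter the comparison. All mice were Tg4 Tiger *Nr4a3*-Tocky mice. Tg4 is a T cell receptor (TCR) transgene specific for myelin basic protein (MBP), Tiger marks *Il10* with GFP, and *Nr4a3*-Tocky drives a Timer protein, blue when newly made and red once mature, from *Nr4a3* control elements. Every group received 80 μg of [4Y] MBP peptide, 800 μg of antibody 24 h later, and 8 μg of the same peptide 30 min after the antibody, and splenic CD4+ cells that were *Nr4a3*-Timer Blue+Red+ were sorted 4 h after the second peptide. The anti-PD1 antibody was a rat IgG2a, the isotype group received a pool of rat IgG1 and rat IgG2a, and the other 2 samples, from mice given anti-Lag3, served only to estimate the spread. Ages of the mice are not given in the sources used here.

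The design sets limits on what the comparison can hold. The T cells carry a transgenic receptor, and the sort kept only cells in which the Timer was blue and red, so genes were compared among responders and not between responders and resting cells. Per the methods, cells of replicate mice were stained separately with distinct CD4 labels and sorted in parallel, so the spread between samples is that between mice, with 2 in each group. A further batch of 3 samples, which the study left out as an outlier, was not used here. Total counts ran from 2107715 to 2648920 per sample, so that 3 reads, the limit that a count of 0 allows, amount to 1.11 to 1.44 CPM, a limit for counting error only. CPM gives reads for each library of 1000000 reads, after TMM adjustment of library sizes. *Gm42418*, annotated as a lincRNA, took from 17.35% to 21.04% of the counts. Summed over the CD4 T cell marker list, levels ran from 3523 to 3939 CPM in the 6 samples.

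Markers of other splenocytes were present at low levels and were unequal between the groups. Summed over 20 B cell markers, the isotype samples had 189 and 216 CPM and the anti-PD1 samples 96.8 and 97.3 CPM, with 109 and 180.1 CPM in the anti-Lag3 samples. Of the 16 B cell markers tested, 10 were lower in both anti-PD1 samples than in both isotype samples (62.5%, against 18.2% of all genes). None was higher in this sense, against 19.2% of all genes, and *Cd79a* was at 0 reads in all 6 samples. The sum over 16 macrophage and monocyte markers was 111 and 76.9 CPM with isotype and 30.2 and 54.0 CPM with anti-PD1. In bulk samples such as these, fewer cells of a type and less RNA per cell cannot be told apart.

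PD1 is an inhibitory receptor whose engagement recruits phosphatases that dampen signals from the TCR and from CD28. A TCR signal releases calcium, which activates NFAT, and drives the ERK, NF-κB and AP-1 pathways, while cytokines made or sensed by the same cells act through JAK kinases and STAT factors. Helper T cells differ in the receptors and factors they induce, with the IL-12 receptor and STAT4 tied to Th1 cells and the IL-23 receptor, STAT3, RORα and AHR tied to Th17 cells.

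Of the 11877 genes, 107 (0.901%) passed an adjusted p of 0.05 in edgeR's quasi-likelihood test, 75 (0.631%) higher and 32 (0.269%) lower with anti-PD1. Among all genes tested, 19.2% had both anti-PD1 samples above both isotype samples and 18.2% had both below, and all 107 called genes were of this kind. Of the rises, 7 were under 1.5-fold, 24 lay between 1.5-fold and 2-fold, 32 between 2-fold and 4-fold, and 12 above 4-fold. Of the falls, 6, 15, 9 and 2 lay in the same ranges. The median log2 fold change over all genes was 0.0045. The number of calls depended on single libraries: it was 53 without isotype sample 2, 60 without anti-PD1 sample 1, 55 without anti-PD1 sample 2, and 185 and 178 without the first and the second anti-Lag3 sample, while DESeq2 called 72 genes, 53 higher and 19 lower. By role, the called genes included 18 transcription factors, 11 costimulatory and surface molecules, 9 cytokines and their receptors, and 8 chromatin factors and corepressors. Roles were given to called genes only, so these numbers follow the size of each class and show no excess in any. The gene lists below were chosen with earlier results of these data known. The share of a list that was called, set beside 0.901% of all genes, is thus a description and cannot show an excess.

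**Figure D1:**
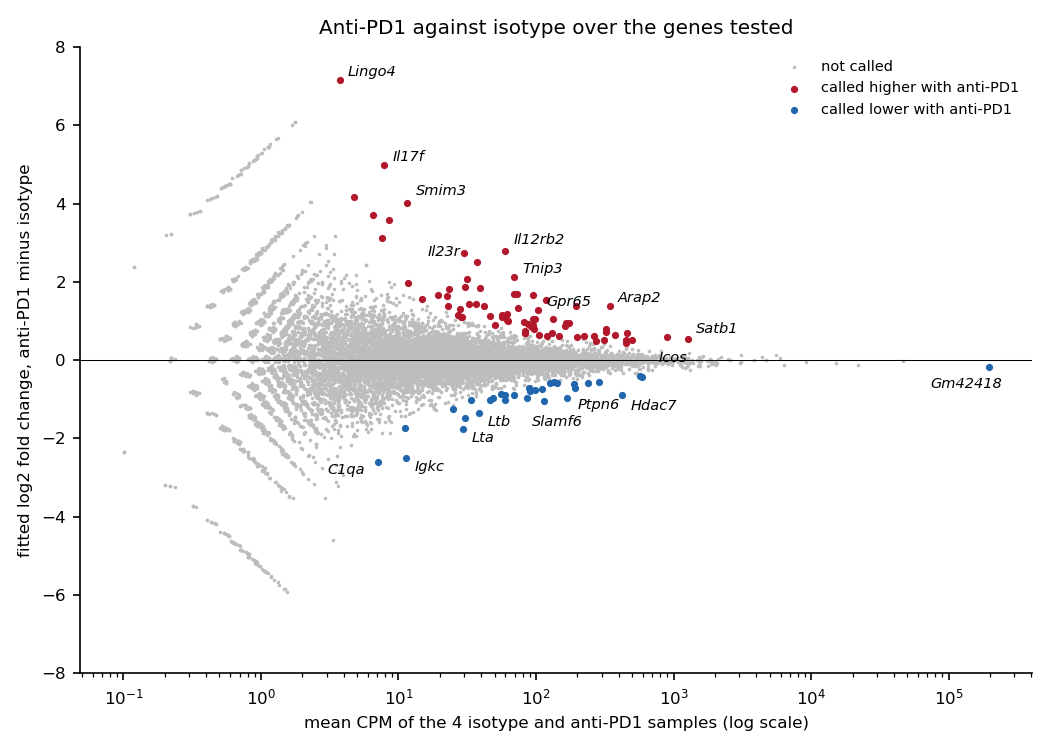
Fitted log2 fold change (anti-PD1 minus isotype) against mean CPM of the 4 samples on a log scale, a point per gene, with 75 genes called higher in red, 32 called lower in blue and the others in gray. The largest rises reach further from 0 than the largest falls, and they lie among genes of low mean CPM.

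Cytokine receptor genes were among the largest rises. *Il12rb2* (ENSMUSG00000018341, chromosome 6 from 67291318 to 67376188), the signaling chain of the IL-12 receptor, had 17.4 and 12.9 CPM with isotype and 100.1 and 109 CPM with anti-PD1 (log2 fold change 2.80, SE 0.24, edgeR adjusted p = 1.55e-10), a 6.94-fold rise. *Il23r* (ENSMUSG00000049093, chromosome 6 from 67422932 to 67491855), the specific chain of the IL-23 receptor, had 16.5 and 6.44 CPM with isotype and 70.0 and 57.2 CPM with anti-PD1 (log2 fold change 2.50, SE 0.33, edgeR adjusted p = 3.1e-06). The isotype samples of *Il23r* differed by more than 2-fold, and the log2 fold change lay between 1.94 and 3.29 with 1 of the 4 samples left out. *Il1r1*, the signaling receptor for IL-1, had 17.9 and 8.45 CPM with isotype and 44.1 and 51.5 CPM with anti-PD1 (log2 fold change 1.88, SE 0.32, edgeR adjusted p = 0.0003), and *Il1rn*, the secreted antagonist of that same receptor, had 1.88 and 1.21 CPM with isotype and 10.5 and 16.8 CPM with anti-PD1 (log2 fold change 3.13, SE 0.63, edgeR adjusted p = 0.00266). The isotype level of *Il1rn* rests on 4 and 3 reads, and its call was lost without isotype sample 2 (edgeR adjusted p = 0.0934) and without anti-PD1 sample 2 (0.227). That of *Il1r1* was lost without isotype sample 2 (log2 fold change 1.42, edgeR adjusted p = 0.0568). The list of interleukin receptors also held other cytokine receptors and the antagonist gene *Il1rn*. Of its 34 genes tested, these 4 rose and 0 fell (11.8% called, against 0.901% of all genes), and the median log2 fold change was −0.13. Most receptors of the list were thus not called. *Il2ra*, *Il2rb* and *Il2rg*, the chains of the IL-2 receptor, had log2 fold changes of 0.18, 0.08 and −0.15 and did not pass the test.

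Among 17 T cell cytokines tested, 2 rose and 2 fell (23.5% called, against 0.901% of all genes). *Il21* (ENSMUSG00000027718, chromosome 3 from 37222759 to 37232636), a cytokine of follicular helper and Th17 cells, had 16.0 and 8.45 CPM with isotype and 60.4 and 41.7 CPM with anti-PD1 (log2 fold change 2.07, SE 0.30, edgeR adjusted p = 1.54e-05). *Il17f*, an effector cytokine of Th17 cells, had 0 and 2 reads with isotype and 42 and 26 reads with anti-PD1, and the ratio of the summed reads, scaled for library size, was 34.6 (95% exact interval 9.21 to 291, counting error only; edgeR adjusted p = 0.0003). Both are secreted by activated helper cells, and both anti-PD1 samples lay above all isotype and anti-Lag3 samples. *Lta*, encoding lymphotoxin α, had 28.3 and 62.8 CPM with isotype and 8.15 and 18.4 CPM with anti-PD1 (log2 fold change −1.76, SE 0.32, edgeR adjusted p = 0.000784), and *Ltb*, encoding its membrane partner lymphotoxin β, had 50.4 and 60.4 CPM with isotype and 21.1 and 22.1 CPM with anti-PD1 (log2 fold change −1.36, SE 0.25, edgeR adjusted p = 0.000705). Lymphotoxins are also made by B cells, whose markers were lower in the same samples, and the part of those cells in the fall was not tested. The call of *Lta* was lost without isotype sample 2 (log2 fold change −1.06, edgeR adjusted p = 0.361) and without anti-PD1 sample 1 (−1.32, 0.115), and its value ranged from −2.49 to −1.06, while *Ltb* was called without any 1 of the 4 samples. The call of *Il17f* was lost without anti-PD1 sample 1 (edgeR adjusted p = 0.0937). The cytokine genes *Mif*, *Il16* and *Lif* were not called and had log2 fold changes of 0.11, 0.02 and 0.36. Chemokine receptors are the route by which helper cells find tissue, and *Ccr6*, the receptor of Th17 cells for CCL20, had 26.9 and 12.9 CPM with isotype and 52.2 and 54.4 CPM with anti-PD1 (log2 fold change 1.44, SE 0.28, edgeR adjusted p = 0.00206). It was the only 1 of 15 chemokine and chemokine receptor genes tested to be called, although the list median was 0.98 (0.78 with the 2 genes absent from a whole group set to the level of 3 reads) and 7 of the 15 had both anti-PD1 samples above both isotype samples (46.7%, against 19.2% of all genes). The call of *Ccr6* was lost without isotype sample 2 (log2 fold change 0.99, edgeR adjusted p = 0.229) and without anti-PD1 sample 2 (1.41, 0.0636). *Ccr7*, *Cxcr3* and *Cxcr5*, at log2 fold changes of 0.40, 0.82 and 1.10, were among those 7.

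Called genes were often neighbors on the chromosome. Within 50 kb of another called gene lay 18 of the 107 called genes (16.8%), and in all 18 the neighbor had moved the same way, whereas 177 of 11741 uncalled genes with a position (1.51%) lay that close to a called gene. At 10 kb the shares were 11.2% and 0.758%. The distance was chosen after the values had been seen, and overlapping genes can share reads, so the counts are given without a test. *Il12rb2* and *Il23r* lie 46.7 kb apart on the minus strand of chromosome 6. Between them lies *Gm4761*, a processed pseudogene with 0 reads in both isotype samples and 4 and 3 reads with anti-PD1, which was not called (edgeR adjusted p = 0.581). On the far side of *Il12rb2*, *Serbp1*, which overlaps *Il12rb2* on the other strand, had 3897 and 3803 CPM with isotype and 3956 and 3809 CPM with anti-PD1 and a log2 fold change of 0.01. *Gm4761*, *Serbp1*, *Tnf* and *Stat5b* are named for their position. On chromosome 4, *Sdf4*, *Tnfrsf4* and *Tnfrsf18* follow each other on the plus strand with gaps of 0.232 and 9.55 kb and log2 fold changes of 0.60, 0.81 and 0.94. At the lymphotoxin locus on chromosome 17, *Ltb* and *Lta* lie 6.84 kb apart with *Tnf* between them, and *Tnf* had a log2 fold change of −0.83 that did not pass the test (edgeR adjusted p = 0.669). *Stat5a* and *Stat3* overlap at their ends on chromosome 11, both higher, while *Stat5b* on the far side of *Stat5a* was at 0.04. *Serpinb6b* and *Serpinb9* (24.2 kb apart), *Gcnt1* and *Rfk* (21.2 kb), and *Picalm* with the divergent noncoding gene *2310010J17Rik* (0.228 kb) made up the other loci with *Il21*.

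**Figure D2:**
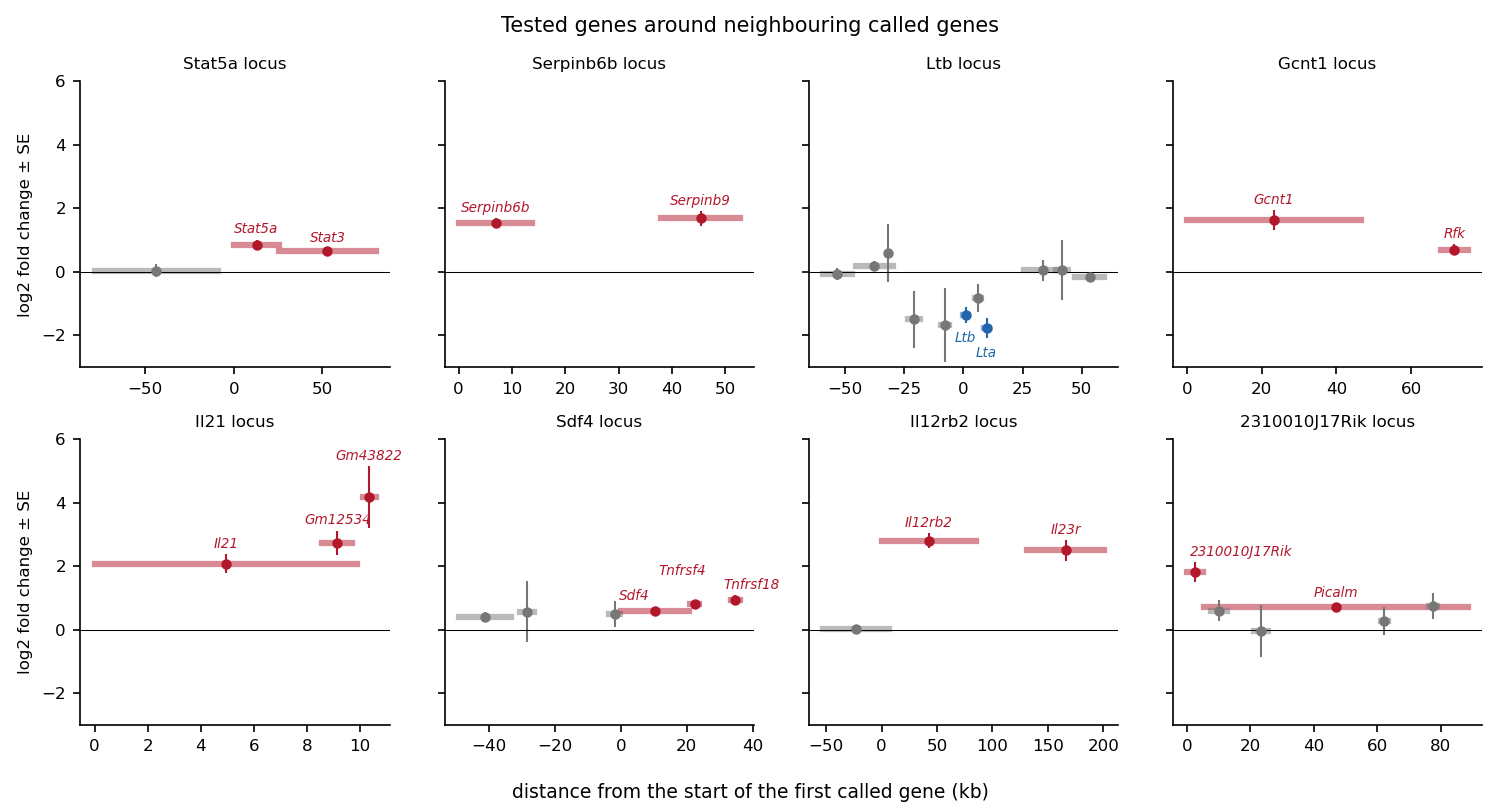
Log2 fold change with its SE (anti-PD1 minus isotype) for the tested genes at the 8 loci with neighboring called genes, against distance in kb from the lowest coordinate of the first called gene, with vertical bars for the SE, horizontal bars for gene extent, red and blue for genes called higher and lower, and gray for genes not called. In each panel the called genes lie on the same side of 0, and the 2 genes with an SE above 1.2 are not drawn.

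At the *Il21* locus the rise covered 3 annotated transcripts. *Gm12534*, annotated as antisense inside *Il21*, had 11.8 and 4.03 CPM with isotype and 59.4 and 43.8 CPM with anti-PD1 (log2 fold change 2.73, SE 0.39, edgeR adjusted p = 1.54e-05), and *Gm43822*, just beyond the *Il21* start on the same strand as *Gm12534*, had 2 and 0 reads with isotype and 28 and 11 with anti-PD1. Exons of *Gm12534* overlap those of *Il21* on the other strand and the strand setting of the counting is not given in the sources used here, so reads of the pair cannot be told apart. The promoters of the neighboring *Il12rb2* and *Il23r* and of the cytokines *Il21* and *Il17f* are printed because the results on cytokines and their receptors turn on these genes. Each is the RefSeq window from 250 bases before to 50 bases after a start, 300 bases on GRCm38.p6 in the direction of the gene, all on the minus strand, with the NFAT core GGAAA and its reverse complement in capitals: *Il12rb2* at chr6:67376139-67376438, *Il23r* at chr6:67491806-67492105, *Il21* at chr3:37232587-37232886 and *Il17f* at chr1:20784221-20784520.
Il12rb2: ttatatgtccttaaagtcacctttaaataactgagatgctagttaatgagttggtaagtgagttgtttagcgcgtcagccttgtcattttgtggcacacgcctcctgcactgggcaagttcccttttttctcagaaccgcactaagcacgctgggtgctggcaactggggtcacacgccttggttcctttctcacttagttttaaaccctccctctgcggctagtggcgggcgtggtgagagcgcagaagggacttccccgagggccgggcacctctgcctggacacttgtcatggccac
Il23r: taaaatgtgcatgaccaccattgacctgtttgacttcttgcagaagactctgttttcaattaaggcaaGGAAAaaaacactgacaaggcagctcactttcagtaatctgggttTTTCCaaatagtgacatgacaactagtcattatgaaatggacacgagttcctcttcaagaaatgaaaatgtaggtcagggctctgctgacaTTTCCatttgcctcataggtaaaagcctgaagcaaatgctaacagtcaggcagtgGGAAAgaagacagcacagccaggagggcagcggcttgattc
Il21: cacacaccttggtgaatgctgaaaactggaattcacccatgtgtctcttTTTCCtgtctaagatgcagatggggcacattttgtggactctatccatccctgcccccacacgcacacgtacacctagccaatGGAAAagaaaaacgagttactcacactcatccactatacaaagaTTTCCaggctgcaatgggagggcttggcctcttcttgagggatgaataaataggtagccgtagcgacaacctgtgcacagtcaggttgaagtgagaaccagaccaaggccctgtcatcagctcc
Il17f: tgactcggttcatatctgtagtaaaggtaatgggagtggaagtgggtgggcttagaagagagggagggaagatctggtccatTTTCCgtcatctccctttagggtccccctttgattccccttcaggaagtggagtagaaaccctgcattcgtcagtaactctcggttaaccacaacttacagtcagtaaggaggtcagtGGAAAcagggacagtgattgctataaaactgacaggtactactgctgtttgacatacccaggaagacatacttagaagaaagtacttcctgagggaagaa
The *Il23r* window held 4 of these cores, the *Il21* window 3, the *Il17f* window 2, and the *Il12rb2* window 0, so the neighbors *Il12rb2* and *Il23r* differed in this feature. The GC content was 53.0% for *Il12rb2* and 43.0% for *Il23r*.

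Promoter windows were found for 61 of the 75 genes called higher (87 windows), 24 of the 32 called lower (42 windows) and 8518 genes tested (10793 windows), and motifs were searched on both strands. The NFAT core GGAAA was in 67.8% of windows of genes called higher, 57.1% of those called lower and 59.6% of all tested. For the AP-1 motif TGANTCA the shares were 3.45%, 11.9% and 4.58%, for the STAT motif TTCNNNGAA 9.20%, 14.3% and 7.01%, and for the CRE motif TGACGTCA 0%, 2.38% and 3.29%. A κB-like motif, GGG and CC set 5 bases apart, was in 65.5%, 64.3% and 67.1%. An IRF-like motif, GAAA repeated after 2 bases, was in 4.60%, 7.14% and 3.22%. The HIF core ACGTG was in 26.4%, 7.14% and 26.2%, and the AHR core GCGTG in 42.5%, 26.2% and 51.9%. Median GC content was 59.0%, 56.5% and 60.7% in the same order, and these short motifs depend on base composition.

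In the JAK-STAT pathway most called genes were higher. Of 28 kinases, STAT factors and feedback inhibitors tested, 5 were called higher and 1 lower (21.4% called, against 0.901% of all genes). Both anti-PD1 samples lay above both isotype samples in 12 (42.9%, against 19.2% of all genes). *Jak2*, the kinase bound to the IL-12 and IL-23 receptors, had 55.1 and 55.9 CPM with isotype and 112 and 106 CPM with anti-PD1 (log2 fold change 0.97, SE 0.18, edgeR adjusted p = 0.000705). *Stat4*, the main factor downstream of IL-12, had 73.0 and 47.1 CPM with isotype and 121 and 107 CPM with anti-PD1 (log2 fold change 0.93, SE 0.19, edgeR adjusted p = 0.00243), and *Stat3*, which acts downstream of IL-21 and IL-23, had 323 and 260.0 CPM with isotype and 473 and 438 CPM with anti-PD1 (log2 fold change 0.65, SE 0.12, edgeR adjusted p = 0.000626). *Stat5a*, downstream of IL-2, had 73.5 and 60.8 CPM with isotype and 126 and 117 CPM with anti-PD1 (log2 fold change 0.85, SE 0.16, edgeR adjusted p = 0.00164). All 4 rises lay between 1.5-fold and 2-fold. The PIM kinases, whose genes are STAT targets that promote growth and survival, moved apart, *Pim1* with 177 and 173 CPM with isotype and 265 and 273 CPM with anti-PD1 (log2 fold change 0.62, SE 0.12, edgeR adjusted p = 0.00207) and *Pim2* with 69.7 and 74.5 CPM with isotype and 41.2 and 38.0 CPM with anti-PD1 (log2 fold change −0.87, SE 0.20, edgeR adjusted p = 0.0114). *Jak1* and the phosphatase gene *Ptpn1* were not called, with log2 fold changes of 0.02 and 0.31.

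In the NF-κB pathway, 3 of 38 genes rose and 0 fell (7.9% called, against 0.901% of all genes), with a list median of 0.08. *Tnip3* (ENSMUSG00000044162, chromosome 6 from 65525313 to 65634040), which encodes an A20-binding inhibitor of NF-κB signaling, had 27.8 and 24.2 CPM with isotype and 116 and 109.6 CPM with anti-PD1 (log2 fold change 2.12, SE 0.21, edgeR adjusted p = 8.85e-09), and it kept a log2 fold change between 2.02 and 2.22 with each sample left out. *Malt1*, the paracaspase that links the TCR to NF-κB, had 109 and 64.8 CPM with isotype and 193 and 169 CPM with anti-PD1 (log2 fold change 1.06, SE 0.17, edgeR adjusted p = 7.63e-05), with isotype samples that lay further apart than the anti-PD1 samples. *Bcl3*, a nuclear IκB protein, had 35.8 and 22.1 CPM with isotype and 73.8 and 52.7 CPM with anti-PD1 (log2 fold change 1.13, SE 0.24, edgeR adjusted p = 0.00501). *Nfkbia* and *Nfkb1* were at 0.16 and 0.33 and were not called.

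Costimulatory receptors of the TNF receptor family rose by similar amounts. *Tnfrsf4*, which encodes OX40, had 242 and 226 CPM with isotype and 408 and 411 CPM with anti-PD1 (log2 fold change 0.81, SE 0.11, edgeR adjusted p = 1.47e-05), *Tnfrsf18*, which encodes GITR, had 119 and 109 CPM with isotype and 187 and 248 CPM with anti-PD1 (log2 fold change 0.94, SE 0.14, edgeR adjusted p = 4.31e-05), and *Tnfrsf9*, which encodes CD137, had 59.4 and 64.8 CPM with isotype and 117 and 139.8 CPM with anti-PD1 (log2 fold change 1.05, SE 0.19, edgeR adjusted p = 0.000518). Of 21 TNF superfamily genes tested, these 3 rose and the 2 lymphotoxin genes fell (23.8% called, against 0.901% of all genes). *Cd27*, *Cd40lg* and *Tnfsf8* were at −0.26, 0.07 and 0.20. *Icos*, a CD28 family receptor, had 739.9 and 696 CPM with isotype and 981 and 1169.9 CPM with anti-PD1 (log2 fold change 0.58, SE 0.09, edgeR adjusted p = 8.59e-05). The surface genes *Cd5*, a damper of TCR signaling, *Ly6a*, a GPI-anchored activation marker, and *Cd24a*, a sialoglycoprotein, rose with log2 fold changes of 1.01, 0.51 and 1.09. *Cd5* had 42.4 and 41.5 CPM with isotype and 71.4 and 96.9 CPM with anti-PD1, *Ly6a* 392 and 355 CPM with isotype and 540.5 and 523 CPM with anti-PD1, and *Cd24a* 20.7 and 15.7 CPM with isotype and 41.2 and 36.4 CPM with anti-PD1. *Cd24a* was lost in each fit without 1 of the 4 samples.

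Surface receptors also fell. *Slamf6*, a homophilic receptor of the SLAM family, had 144 and 164 CPM with isotype and 86.7 and 64.6 CPM with anti-PD1 (log2 fold change −1.03, SE 0.16, edgeR adjusted p = 5.51e-05). *Cd226*, an activating receptor that shares its ligands with TIGIT, had 39.1 and 31.0 CPM with isotype and 20.1 and 9.81 CPM with anti-PD1 (log2 fold change −1.24, SE 0.31, edgeR adjusted p = 0.0366), with the anti-PD1 samples more than 2-fold apart, and was called in 1 of the 4 fits without a sample (−0.80, adjusted p = 0.726, without anti-PD1 sample 2). *Izumo1r*, which encodes folate receptor 4, had 51.8 and 77.7 CPM with isotype and 26.4 and 40.1 CPM with anti-PD1 (log2 fold change −0.96, SE 0.23, edgeR adjusted p = 0.0209), and *Tmem154*, a membrane protein of little known function, had 42.9 and 46.7 CPM with isotype and 10.5 and 21.3 CPM with anti-PD1 (log2 fold change −1.47, SE 0.29, edgeR adjusted p = 0.00227). The call of *Tmem154* was lost without anti-PD1 sample 1 (−1.07, edgeR adjusted p = 0.215) and isotype sample 2 (−1.41, 0.0529), whereas *Slamf6* was called in all 4 fits without a sample.

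In a list of proximal TCR signaling genes, adaptors and related surface receptors, the called genes were lower with anti-PD1. Of its 39 genes, 0 rose and 4 fell (10.3% called, against 0.901% of all genes). These 4 were the surface receptors *Slamf6* and *Cd226*, already described, and the adaptors *Fyb* and *Lcp2*. Both anti-PD1 samples lay below both isotype samples in 13 of the 39 (33.3%, against 18.2% of all genes). *Lcp2*, which encodes the adaptor SLP-76, had 175 and 168 CPM with isotype and 122 and 105 CPM with anti-PD1 (log2 fold change −0.59, SE 0.14, edgeR adjusted p = 0.0157), and *Fyb*, which encodes ADAP, a partner of SLP-76, had 305 and 268 CPM with isotype and 189.7 and 195 CPM with anti-PD1 (log2 fold change −0.57, SE 0.12, edgeR adjusted p = 0.00417). With 1 of the 4 samples left out, the log2 fold change of *Lcp2* ranged from −0.70 to −0.49 and that of *Fyb* from −0.66 to −0.48. The list median was −0.07, and *Cd28*, *Fyn* and *Cd2* had log2 fold changes of 0.11, 0.16 and 0.35. Among 38 phosphatase genes, 2 rose and 1 fell (7.9% called, against 0.901% of all genes). *Ptpn6* (ENSMUSG00000004266, chromosome 6 from 124720707 to 124738714), which encodes SHP-1, a phosphatase that restrains TCR signaling, had 228 and 220.2 CPM with isotype and 123 and 106 CPM with anti-PD1 (log2 fold change −0.97, SE 0.14, edgeR adjusted p = 1.41e-05). *Ptpn4*, a tyrosine phosphatase also linked to restraint of TCR signaling, had 37.7 and 28.2 CPM with isotype and 103 and 109 CPM with anti-PD1 (log2 fold change 1.69, SE 0.20, edgeR adjusted p = 2.71e-07). *Dusp5*, a nuclear phosphatase of ERK, had 67.4 and 62.4 CPM with isotype and 129 and 109.6 CPM with anti-PD1 (log2 fold change 0.88, SE 0.17, edgeR adjusted p = 0.00114). Dampers of the TCR thus went both ways, since *Cblb*, a ubiquitin ligase that restrains CD28-dependent activation, rose as well, with 141 and 99.0 CPM with isotype and 215 and 245 CPM with anti-PD1 (log2 fold change 0.95, SE 0.15, edgeR adjusted p = 5.51e-05). Over the 38 inhibitory receptors and dampers tested, 2 rose and 1 fell (7.9% called, against 0.901% of all genes). Of these 38, 15 had both anti-PD1 samples below both isotype samples (39.5%, against 18.2% of all genes), and the median was −0.29. *Map2k3*, a kinase of the p38 pathway, had 69.7 and 54.3 CPM with isotype and 113 and 96.1 CPM with anti-PD1 (log2 fold change 0.76, SE 0.18, edgeR adjusted p = 0.0162).

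The target of the antibody, its ligands and the gated gene were not called. *Pdcd1*, which encodes PD1, had 16.0 and 13.3 CPM with isotype and 12.9 and 12.3 CPM with anti-PD1 (log2 fold change −0.21, SE 0.37, edgeR adjusted p = 0.966). Its ligand genes *Cd274* and *Pdcd1lg2* had log2 fold changes of −0.12 and −0.26 (SE 0.36 and 0.33), and *Lag3* had 7 and 14 reads with isotype and 15 and 7 with anti-PD1. An antibody blocks the protein, so the *Pdcd1* transcript does not check the treatment. *Nr4a3*, whose reporter defined the gate, had 51.4 and 45.1 CPM with isotype and 29.7 and 29.4 CPM with anti-PD1, lower in both anti-PD1 samples than in both isotype samples, and missed the threshold (log2 fold change −0.70, SE 0.23, edgeR adjusted p = 0.195).

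Genes of calcium handling moved both ways, with 2 of 35 higher and 2 lower (11.4% called, against 0.901% of all genes). *Itpr2*, an IP3 receptor of the calcium stores, had 122 and 108 CPM with isotype and 69.0 and 65.0 CPM with anti-PD1 (log2 fold change −0.77, SE 0.16, edgeR adjusted p = 0.00492), and *Nfatc1*, the NFAT factor induced by activation, had 209 and 244 CPM with isotype and 160.0 and 139 CPM with anti-PD1 (log2 fold change −0.60, SE 0.13, edgeR adjusted p = 0.00831). *Atp2b4*, a calcium pump of the plasma membrane, had 13.2 and 12.5 CPM with isotype and 30.7 and 36.0 CPM with anti-PD1 (log2 fold change 1.38, SE 0.31, edgeR adjusted p = 0.0102). *Sdf4*, a calcium-binding protein of the Golgi and the neighbor of *Tnfrsf4*, had 155 and 161 CPM with isotype and 219 and 258 CPM with anti-PD1 (log2 fold change 0.60, SE 0.13, edgeR adjusted p = 0.00592). *Calm2* and *Calm3*, which encode calmodulin, were at 0.02 and −0.06.

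Of the 18 transcription factors called, 11 rose and 7 fell. The ligand-sensing factors included 3 rises among 24 genes tested and 0 falls (12.5% called, against 0.901% of all genes). *Rora*, which encodes RORα, had 138 and 80.9 CPM with isotype and 301 and 267 CPM with anti-PD1 (log2 fold change 1.39, SE 0.16, edgeR adjusted p = 9.16e-08), *Ahr*, the aryl hydrocarbon receptor, had 15.6 and 19.7 CPM with isotype and 52.2 and 43.3 CPM with anti-PD1 (log2 fold change 1.42, SE 0.29, edgeR adjusted p = 0.00251), and *Hif1a*, the oxygen-regulated factor, had 384 and 321 CPM with isotype and 574 and 571 CPM with anti-PD1 (log2 fold change 0.70, SE 0.11, edgeR adjusted p = 4.14e-05). Of 29 helper lineage factors, *Rora*, *Ahr* and *Bhlhe40*, a regulator of cytokine production by helper cells (70.7 and 55.9 CPM with isotype and 105 and 98.5 CPM with anti-PD1), rose, while *Pou2f2*, which encodes OCT2 and is also prominent in B cells, fell (377 and 309.9 CPM with isotype and 232 and 238 CPM with anti-PD1). *Maf*, a lineage factor tied to *Il10* and *Il21*, had 212 and 256 CPM with isotype and 304 and 349 CPM with anti-PD1 and lay just beyond the threshold (edgeR adjusted p = 0.0511). Of 11 IRF genes, *Irf4* (270.0 and 247 CPM with isotype and 384 and 354 CPM with anti-PD1) and *Irf8* (264 and 223 CPM with isotype and 411 and 384 CPM with anti-PD1), both induced by TCR signals, rose with log2 fold changes of 0.51 and 0.71. *Irf2* was lower in both anti-PD1 samples and was not called (log2 fold change −0.64, edgeR adjusted p = 0.0623). The share called was 18.2% of the IRF genes and 13.8% of the helper lineage factors, against 0.901% of all genes. *Irf8* also marks dendritic cells. The sum over 12 dendritic cell markers was 445 and 445 CPM with isotype and 662 and 634 CPM with anti-PD1, but nearly all of it came from *Irf8*, *Ccr7* and *Bst2*, which T cells also express, while *Zbtb46*, *Clec9a*, *Cd209a* and *Siglech* were at 0 reads in all 6 samples.

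Basic leucine zipper factors gave called rises and no called fall. Among 32 AP-1, BATF, CREB and MAF genes, 2 rose and 0 fell (6.25% called, against 0.901% of all genes). Of these 32, 13 had both anti-PD1 samples above both isotype samples (40.6%, against 19.2% of all genes), with a median of 0.28. *Crem*, a cAMP-responsive factor, had 25.4 and 9.26 CPM with isotype and 59.9 and 63.0 CPM with anti-PD1 (log2 fold change 1.85, SE 0.29, edgeR adjusted p = 5.65e-05), with isotype samples that differed by more than 2-fold. *Nfil3* had 10.8 and 7.65 CPM with isotype and 29.7 and 29.0 CPM with anti-PD1 (log2 fold change 1.67, SE 0.37, edgeR adjusted p = 0.00929). *Atf4* and *Bach2* were not called and were at 0.25 and −0.17. Of 23 immediate early genes, *Klf6* was called (80.6 and 52.7 CPM with isotype and 110.2 and 136 CPM with anti-PD1, log2 fold change 0.90), and *Cd69* and *Myc* were at 0.23 and −0.05. *Elk1*, an ETS factor that is a target of ERK, had 3.77 and 5.64 CPM with isotype and 18.2 and 19.6 CPM with anti-PD1 (log2 fold change 1.98, SE 0.44, edgeR adjusted p = 0.00896), but it was lost in each of the 4 fits without a sample and its exons overlap those of *Uxt*. *Rbpj*, the DNA-binding partner of Notch, had 41.0 and 29.4 CPM with isotype and 70.0 and 85.1 CPM with anti-PD1 (log2 fold change 1.15, SE 0.21, edgeR adjusted p = 0.000836) and was the only called gene of 24 in the Notch pathway.

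Some factors tied to the resting state fell. Of 43 genes of quiescence and lymphoid homing, 1 rose and 5 fell, and 14 had both anti-PD1 samples below both isotype samples (32.6%, against 18.2% of all genes). *Foxn3*, a forkhead factor, had 115 and 112 CPM with isotype and 57.5 and 58.9 CPM with anti-PD1 (log2 fold change −0.96, SE 0.17, edgeR adjusted p = 0.000319), and the 4 values were tight within each group. *Foxp1*, which holds naive T cells quiescent, had 631 and 664 CPM with isotype and 499 and 476 CPM with anti-PD1 (log2 fold change −0.41, SE 0.10, edgeR adjusted p = 0.019). *Lef1*, a factor of naive and memory cells, had 148 and 174 CPM with isotype and 109.7 and 111 CPM with anti-PD1 (log2 fold change −0.55, SE 0.14, edgeR adjusted p = 0.0412), *Klf3* had 33.5 and 55.9 CPM with isotype and 23.5 and 20.9 CPM with anti-PD1 (log2 fold change −1.02, SE 0.27, edgeR adjusted p = 0.0482), and *Arhgef3*, a guanine nucleotide exchange factor, had 77.3 and 82.5 CPM with isotype and 36.4 and 41.7 CPM with anti-PD1 (log2 fold change −1.03, SE 0.19, edgeR adjusted p = 0.0011). *Satb1*, a genome organizer of T cells, was the exception with 1078 and 998 CPM with isotype and 1487 and 1517 CPM with anti-PD1 (log2 fold change 0.53, SE 0.08, edgeR adjusted p = 7.54e-05). *Hivep3*, a zinc finger factor, also fell, with 227 and 249 CPM with isotype and 160.0 and 130.4 CPM with anti-PD1 (log2 fold change −0.72, SE 0.14, edgeR adjusted p = 0.00172). *Slfn2*, *Ms4a6b* and *Rapgef6* were not called and were at 0.13, −0.02 and 0.05.

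Among chromatin regulators, the called deacetylase and corepressor genes were lower and the called remodelers mixed. Of 24 histone deacetylases and corepressors, 0 rose and 2 fell (8.33% called, against 0.901% of all genes). *Hdac7* (ENSMUSG00000022475, chromosome 15 from 97792664 to 97844502), a class IIa deacetylase that shuttles out of the nucleus on TCR signaling, had 554 and 546 CPM with isotype and 312 and 278 CPM with anti-PD1 (log2 fold change −0.90, SE 0.11, edgeR adjusted p = 3.45e-07) and was called in all 4 fits without a sample. *Tle3*, a Groucho-type corepressor, had 108 and 112 CPM with isotype and 71.9 and 62.6 CPM with anti-PD1 (log2 fold change −0.72, SE 0.17, edgeR adjusted p = 0.0161). Of 69 remodelers and modifying enzymes, *Eed*, a core subunit of the Polycomb complex PRC2 (99.4 and 90.6 CPM with isotype and 149 and 145 CPM with anti-PD1), the remodeler *Chd7* (233 and 219 CPM with isotype and 307 and 326 CPM with anti-PD1) and *Satb1* rose, and *Atxn1* (79.2 and 76.9 CPM with isotype and 38.8 and 44.6 CPM with anti-PD1) and *Hivep3* fell. Outside these lists, *Ankrd12* rose (133 and 96.6 CPM with isotype and 181 and 173 CPM with anti-PD1) and the nuclear receptor coactivator *Ncoa7* fell (128 and 119.9 CPM with isotype and 69.5 and 76.5 CPM with anti-PD1), the latter lost in every fit without a sample. The share called among remodelers and modifying enzymes was 7.25%, against 0.901% of all genes. The remodelers *Chd4*, *Ezh2* and *Smarcc1* were not called and were at 0.00, −0.24 and −0.02.

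Lesser-known rises lay among genes of the cytoskeleton and of small GTPases. *Arap2* (ENSMUSG00000037999, chromosome 5 from 62602445 to 62766159), a GTPase-activating protein for ARF6, had 224 and 156 CPM with isotype and 487 and 503 CPM with anti-PD1 (log2 fold change 1.38, SE 0.13, edgeR adjusted p = 1.83e-09), among the smallest adjusted p-values of the comparison. *Crybg1*, a crystallin-fold protein of the actin cytoskeleton, had 54.7 and 38.2 CPM with isotype and 125 and 165 CPM with anti-PD1 (log2 fold change 1.66, SE 0.18, edgeR adjusted p = 6.27e-08). *Camsap2*, which binds microtubule minus ends, had 24.0 and 21.7 CPM with isotype and 67.6 and 53.2 CPM with anti-PD1 (log2 fold change 1.40, SE 0.24, edgeR adjusted p = 0.0003), and *Cnn3*, an actin-binding calponin, had 38.6 and 42.7 CPM with isotype and 83.9 and 81.0 CPM with anti-PD1 (log2 fold change 1.02, SE 0.19, edgeR adjusted p = 0.00144). *Dock10*, an exchange factor for CDC42 and RAC, and *Ostf1*, an adaptor, rose with log2 fold changes of 0.61 and 0.90. Across the wider classes the changes were few, with 3 of 61 actin and microtubule regulators higher and 0 lower, and 2 of 60 exchange factors and GAPs higher and 1 lower. *Actb*, *Tuba1b* and *Tubb5* were at −0.08, −0.05 and −0.10.

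Membrane traffic gave rises and no called falls. Of 65 genes of vesicle fusion, endocytosis and ESCRT, 4 rose and 0 fell (6.15% called, against 0.901% of all genes). *Chmp4b*, an ESCRT-III subunit that cuts membranes, had 390.2 and 426 CPM with isotype and 550.1 and 618 CPM with anti-PD1 (log2 fold change 0.52, SE 0.10, edgeR adjusted p = 0.00226). *Nsf*, the ATPase that recycles SNARE complexes, had 75.9 and 64.0 CPM with isotype and 112 and 132 CPM with anti-PD1 (log2 fold change 0.81, SE 0.16, edgeR adjusted p = 0.00245), and *Picalm*, a clathrin assembly protein, had 107 and 90.6 CPM with isotype and 156 and 165 CPM with anti-PD1 (log2 fold change 0.70, SE 0.15, edgeR adjusted p = 0.00436). *Stx11*, a syntaxin needed for release of lytic granules, had 20.7 and 16.1 CPM with isotype and 44.1 and 34.3 CPM with anti-PD1 and was lost in each fit without a sample. Outside the list, *Vps54*, which tethers vesicles at the Golgi, had 17.4 and 14.5 CPM with isotype and 44.1 and 35.6 CPM with anti-PD1 (log2 fold change 1.32, SE 0.28, edgeR adjusted p = 0.00542), and *Unc119b*, a carrier of lipid-modified proteins, had 19.8 and 14.1 CPM with isotype and 35.9 and 38.4 CPM with anti-PD1 (log2 fold change 1.14, SE 0.28, edgeR adjusted p = 0.0241). The clathrin genes *Cltc* and *Clta* were at −0.03 and 0.01.

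Called genes of proteases and their inhibitors differed in how steady their changes were. *Serpinb6b* (ENSMUSG00000042842, chromosome 13 from 32965209 to 32979067), an intracellular serpin, had 64.1 and 58.4 CPM with isotype and 175 and 178 CPM with anti-PD1 (log2 fold change 1.53, SE 0.16, edgeR adjusted p = 1.36e-08), and the adjacent *Serpinb9*, an inhibitor of granzyme B, had 49.5 and 20.5 CPM with isotype and 92.5 and 128 CPM with anti-PD1 (log2 fold change 1.68, SE 0.24, edgeR adjusted p = 1.54e-05). The 2 serpins are paralogs, between which 3′ reads could be divided, and the isotype values of *Serpinb9* differed by more than 2-fold, where those of *Serpinb6b* did not. *Furin*, a proprotein convertase that matures TGFβ and other ligands, had 74.0 and 54.7 CPM with isotype and 128 and 139 CPM with anti-PD1 (log2 fold change 1.06, SE 0.17, edgeR adjusted p = 0.000103). *Srgn*, the granule proteoglycan serglycin, had 401 and 359 CPM with isotype and 532 and 503 CPM with anti-PD1 (log2 fold change 0.45, SE 0.11, edgeR adjusted p = 0.0402). Of the 36 genes of this class, 4 rose and 1 fell (13.9% called, against 0.901% of all genes). In the BCL2 and cell death list, *Shisa5*, a p53 target (663 and 693 CPM with isotype and 477 and 529.5 CPM with anti-PD1), was the only called gene of 30, although 12 had both anti-PD1 samples above both isotype samples (40.0%, against 19.2% of all genes) and the median was 0.22. *Mcl1* and *Bcl2* were at 0.27 and −0.09.

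Receptors for small signals and carriers gave a few large rises. *Gpr65* (ENSMUSG00000021886, chromosome 12 from 98268635 to 98276644), a proton-sensing receptor, had 64.1 and 55.5 CPM with isotype and 158 and 133 CPM with anti-PD1 (log2 fold change 1.28, SE 0.16, edgeR adjusted p = 1.63e-06). *Ramp3*, a partner of calcitonin family receptors, had 1 and 5 reads with isotype and 26 and 47 with anti-PD1, a ratio of 12.4 (95% exact interval 5.42 to 34.8; edgeR adjusted p = 0.000784), a call lost without anti-PD1 sample 2 (edgeR adjusted p = 0.16). These were 2 of 30 G protein-coupled receptors and partners tested (6.67% called, against 0.901% of all genes). *Rgs10*, *Gpr174* and *Gpr183* were at −0.24, −0.23 and 0.19. *Slc39a10*, which imports zinc, had 40.1 and 35.02 CPM with isotype and 99.7 and 72.0 CPM with anti-PD1 (log2 fold change 1.19, SE 0.22, edgeR adjusted p = 0.000754), the only called gene of 20 in zinc handling. Of 29 amino acid, glucose and nucleoside carriers, 0 were called in either direction by edgeR or DESeq2. An unadjusted p under 0.05 in edgeR was reached by 5 (17.2%, against 8.12% of all genes). *Slc38a2* came to a log2 fold change of 0.35 (edgeR adjusted p = 0.196).

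Among the called genes, 6 were grouped as acting on RNA, nucleotides, cofactors or glycans, and all 6 rose. The group was made from called genes alone, so it gives no share of the genes tested. *Samhd1*, which degrades dNTPs, had 114 and 116 CPM with isotype and 188 and 228 CPM with anti-PD1 (log2 fold change 0.86, SE 0.14, edgeR adjusted p = 8.26e-05). *Tent5c*, a noncanonical poly(A) polymerase, had 42.4 and 29.4 CPM with isotype and 77.6 and 76.9 CPM with anti-PD1 (log2 fold change 1.11, SE 0.21, edgeR adjusted p = 0.00125). *Gcnt1*, which builds core 2 O-glycans of selectin ligands, had 10.8 and 11.3 CPM with isotype and 31.1 and 37.6 CPM with anti-PD1 (log2 fold change 1.63, SE 0.31, edgeR adjusted p = 0.00154), and *Rfk*, the adjacent riboflavin kinase, had 60.3 and 66.0 CPM with isotype and 87.7 and 118 CPM with anti-PD1 (log2 fold change 0.71, SE 0.18, edgeR adjusted p = 0.0325). *Ciapin1*, a factor of iron-sulfur cluster assembly, had 72.6 and 89.8 CPM with isotype and 132 and 123 CPM with anti-PD1 and was lost in each fit without a sample. *Rpph1*, the RNA of RNase P, had 40.1 and 43.9 CPM with isotype and 118 and 93.2 CPM with anti-PD1 (log2 fold change 1.32, SE 0.23, edgeR adjusted p = 0.000319), while its anti-Lag3 samples spread from 33.7 to 78.0 CPM and DESeq2 did not call it (adjusted p = 0.474). Of 46 genes listed for mRNA decay, tailing and RNA binding, 2 rose, *Tent5c* and *Samhd1*, and 0 fell (4.35% called, against 0.901% of all genes). The list was chosen with earlier results of these data known, so this share cannot show an excess. Of 38 glycosyltransferases 1 was called (2.63%). *Ybx1*, an RNA-binding member, was at −0.10.

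The largest fitted rises were in genes with few isotype reads, whose size is poorly fixed. *Lingo4*, a leucine-rich repeat membrane protein, had 0 reads in both isotype samples and 15 and 19 with anti-PD1, a level that lies at least 5.71-fold higher than 3 reads in each library would give (edgeR adjusted p = 0.00659). *Smim3*, a small membrane protein, had 3 reads in each isotype sample and 41 and 59 with anti-PD1, a ratio of 16.9 (95% exact interval 7.51 to 47.3; edgeR adjusted p = 1.53e-05). It was called in all 4 fits without a sample. *Gm10827*, a noncoding gene, had 4 and 0 reads with isotype and 23 and 32 with anti-PD1, a ratio of 13.97 (95% exact interval 5.16 to 53.1), and the ratio of *Gm43822* was 19.8 (5.13 to 169). *2310010J17Rik*, the noncoding gene that shares its start region with *Picalm*, had 9.42 and 10.9 CPM with isotype and 37.4 and 35.2 CPM with anti-PD1 (log2 fold change 1.83, SE 0.31, edgeR adjusted p = 0.0003) and lay between 1.74 and 1.94 with each sample left out. *Tg*, which encodes thyroglobulin, had 10.4 and 4.83 CPM with isotype and 18.2 and 26.2 CPM with anti-PD1 (log2 fold change 1.57, SE 0.39, edgeR adjusted p = 0.0268) and was called in 1 of the 4 fits without a sample, with a range from 1.10 to 2.20. *Gm10827* and *Lingo4* were likewise called in 1 of these fits. Of 987 long noncoding RNAs tested, 4 rose and 1, *Gm42418*, fell (0.507% called, against 0.901% of all genes). The fall of *Gm42418* was 0.17 on the log2 scale, and DESeq2 did not call it (adjusted p = 0.749).

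**Figure D3:**
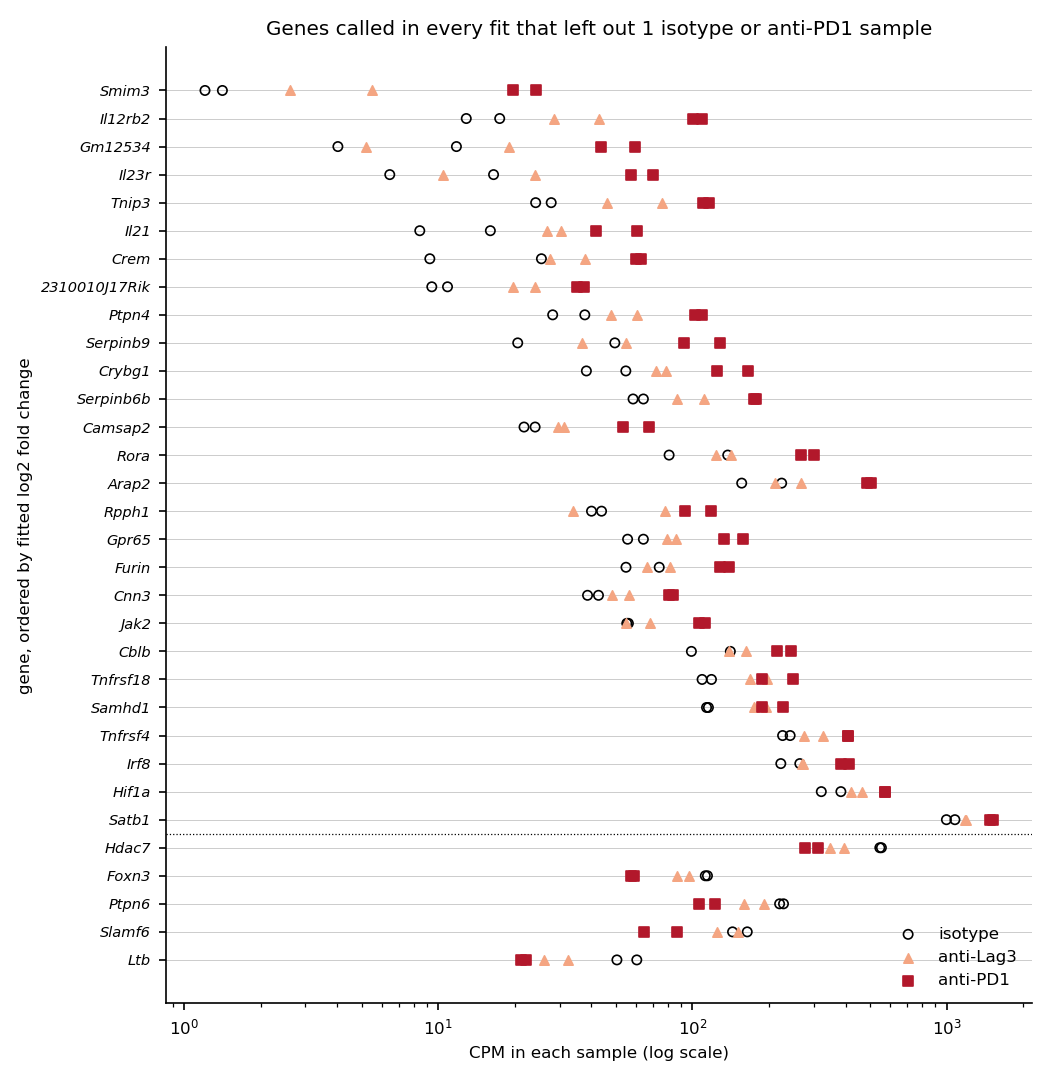
CPM in each of the 6 samples on a log scale for the 32 genes called in all 4 fits that left out an isotype or anti-PD1 sample, ordered by fitted log2 fold change, with open circles for isotype, triangles for anti-Lag3 and squares for anti-PD1. The 27 genes above the dotted line had both anti-PD1 samples above both isotype samples, and the 5 below it had both below.

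Several falls were in markers of other cells. *Igkc*, the immunoglobulin κ constant region, had 17.9 and 20.5 CPM with isotype and 4.79 and 2.04 CPM with anti-PD1 (log2 fold change −2.51, SE 0.48, edgeR adjusted p = 0.00132), and *Ighm*, the IgM heavy chain, had 82.5 and 95.8 CPM with isotype and 53.7 and 43.3 CPM with anti-PD1 (log2 fold change −0.89, SE 0.20, edgeR adjusted p = 0.00836). *C1qa*, a complement gene of macrophages, had 12.7 and 11.7 CPM with isotype and 1.44 and 2.45 CPM with anti-PD1 (log2 fold change −2.59, SE 0.64, edgeR adjusted p = 0.0266). These are 2 of the 16 B cell markers and 1 of the 13 macrophage markers tested, lists with median log2 fold changes of −1.06 and −1.42. The call of *Igkc* was lost without anti-PD1 sample 2 (edgeR adjusted p = 0.156), and that of *C1qa* without each of the 4 samples. *Cd74* and *H2-Aa*, which B cells and dendritic cells share, had log2 fold changes of −1.12 and −1.86 and were not called. Beside them, *Ifi203*, an interferon-inducible gene whose exons overlap *Mndal*, had 159 and 144 CPM with isotype and 103 and 97.7 CPM with anti-PD1 (log2 fold change −0.59, SE 0.15, edgeR adjusted p = 0.0305), *Tmem131l* 122 and 155 CPM with isotype and 75.7 and 89.5 CPM with anti-PD1 and *Ccdc171* 12.3 and 21.7 CPM with isotype and 6.71 and 3.68 CPM with anti-PD1. Of 62 interferon-stimulated genes, *Samhd1* rose and *Ifi203* fell (3.23% called, against 0.901% of all genes). The NK and CD8 T cell, granulocyte, plasma cell and erythroid lists held 0 called genes among 8, 2, 1 and 5 tested. Of 9 regulatory T cell markers *Tnfrsf18* was called, with *Il2ra*, *Ikzf2* and *Ctla4* at 0.18, −0.07 and 0.61. The part of other cells in the falls was not tested.

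Whole classes of housekeeping and growth genes held no called gene by edgeR. None of 80 cytosolic ribosomal protein genes (median log2 fold change 0.00), 79 nuclear genes of oxidative phosphorylation (−0.03), 8 mitochondrially encoded genes (0.07) or 47 proteasome subunits (−0.03) was called. The same held for 71 genes of ribosome biogenesis linked to MYC (median 0.00), 52 of DNA replication (0.03), 63 of mitosis (−0.10), 24 of glycolysis (0.06), 39 of cholesterol and fatty acid synthesis (−0.05), 42 of the ATF4 response (−0.06) and 46 of heat shock and folding (0.06). In 24 genes of MHC class I and its peptide loading (−0.05), 19 S100, galectin and annexin genes (−0.12) and 412 pseudogenes (−0.06) there was also no call. At an unadjusted p under 0.05 stood 1 of the 80 ribosomal protein genes, 3 of the 79 oxidative phosphorylation genes, 0 of the 47 proteasome subunits, 1 of the 71 ribosome biogenesis genes and 7 of the 63 mitosis genes (11.1%), beside 964 of all genes (8.12%), and DESeq2 called 0 genes of these lists. The share was 15.8% in the S100, galectin and annexin list (3 of 19) and 10.3% in cholesterol and fatty acid synthesis (4 of 39). It was 8.33% in glycolysis and in MHC class I, 7.14% in the ATF4 response, 5.77% in DNA replication and 2.17% in heat shock and folding. Members named by the rule were at small log2 fold changes, with *Npm1* at −0.05, *Mcm7* at −0.03, *Ldha* at 0.06, *Fasn* at 0.24, *Hsp90ab1* at −0.12 and *B2m* at −0.02. The mitosis list had no call, but more of its genes lay below than above, 24 of its 63 genes having both anti-PD1 samples below both isotype samples (38.1%, against 18.2% of all genes) and 4 above, with *Top2a*, *Smc4* and *Mki67* at −0.11, −0.17 and −0.20. In the ATF4 response, 1 of 42 genes lay above (2.38%, against 19.2% of all genes) and 5 below (11.9%, against 18.2%) in this sense, both under the shares of all genes. Of the 40 lists of named functions, 30 held a called gene and 10 held none.

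**Figure D4:**
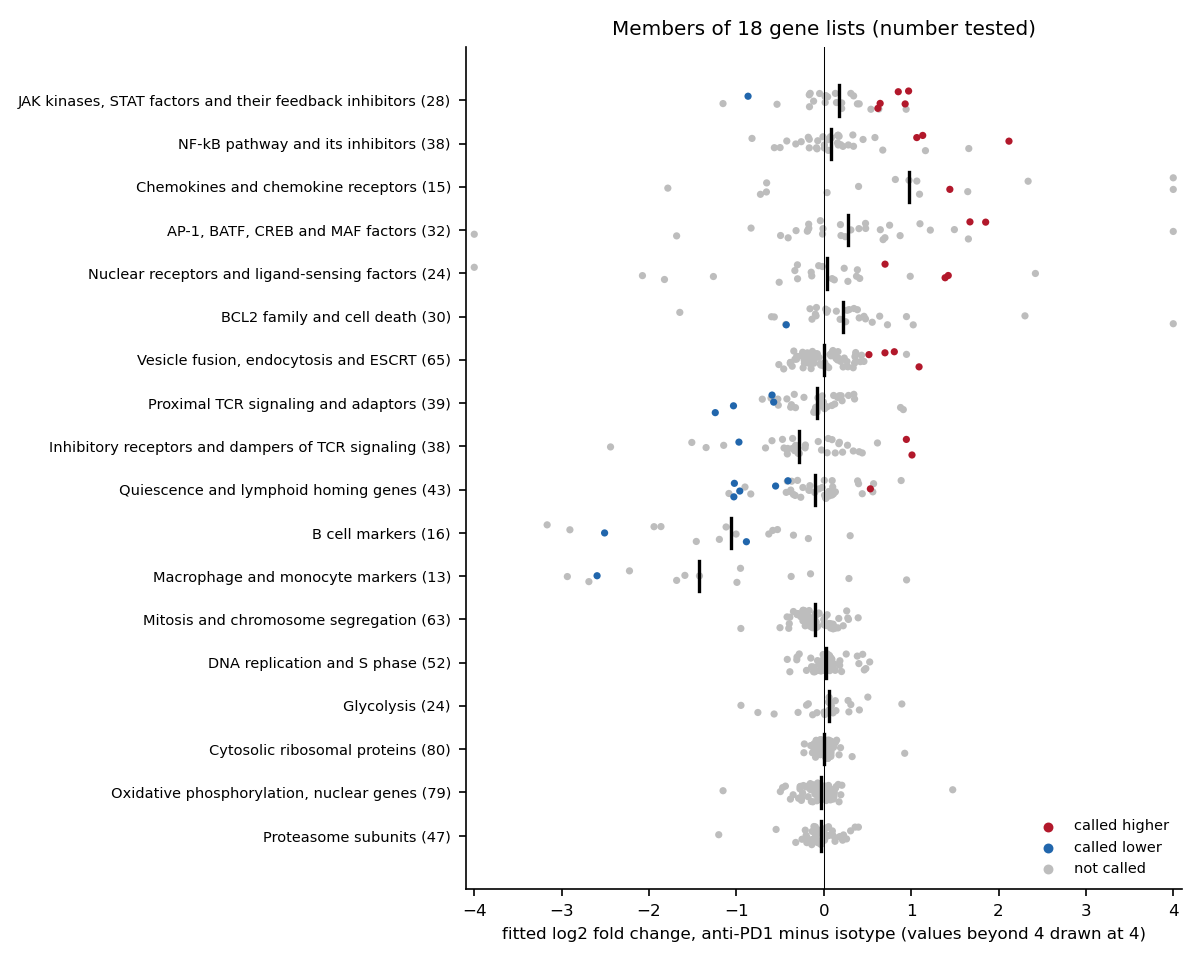
Fitted log2 fold change (anti-PD1 minus isotype) of each member of 18 gene lists, with the number tested in parentheses, red for called higher, blue for called lower, gray for not called and a black bar for the median, and with values beyond 4 in size drawn at the edge. Called members lie in the upper 12 lists, whereas most ribosomal, respiratory and proteasome genes lie close to 0.

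Calls differed in whether they outlasted the loss of a sample. Each fit without 1 of the 4 samples leaves 1 sample in a group, so a lost call can reflect fewer samples as well as spread. The number of fits therefore does not rank replicate consistency. *Pim1* ranged only from 0.60 to 0.64 over these fits and *Serpinb9* from 1.16 to 2.43, yet *Pim1* was called in fewer of them. With each of the 4 samples left out in turn and the others refitted, 32 of the 107 genes were called in all 4 fits, 13 in 3, 25 in 2, 28 in 1 and 9 in none. Of the 75 rises, 27 were called in all 4 fits, and of the 32 falls, 5 were, namely *Hdac7*, *Ptpn6*, *Slamf6*, *Foxn3* and *Ltb*. Called in 3 of the fits were *Ahr*, *Arhgef3*, *Cd5*, *Gcnt1*, *Icos*, *Igkc*, *Il17f*, *Il1r1*, *Malt1*, *Ramp3*, *Slc39a10*, *Tent5c* and *Tnfrsf9*. Called in 2 were *Atxn1*, *Bcl3*, *Ccr6*, *Chmp4b*, *Dock10*, *Dusp5*, *Gm42418*, *Gm43822*, *Hivep3*, *Ighm*, *Il1rn*, *Izumo1r*, *Klf6*, *Lta*, *Nfatc1*, *Nsf*, *Picalm*, *Pim1*, *Rbpj*, *Stat3*, *Stat4*, *Stat5a*, *Tmem131l*, *Tmem154* and *Vps54*. Those called in 1 included *Ankrd12*, *Atp2b4*, *Bhlhe40*, *Ccdc171*, *Cd226*, *Chd7*, *Eed*, *Foxp1*, *Fyb*, *Gm10827*, *Irf4*, *Itpr2*, *Klf3*, *Lef1*, *Lingo4*, *Ly6a*, *Map2k3*, *Nfil3*, *Ostf1*, *Pim2*, *Pou2f2*, *Rfk*, *Sdf4*, *Shisa5*, *Srgn*, *Tg* and *Unc119b*. The 9 genes called in no such fit were *C1qa* (−2.59), *Tle3* (−0.72), *Lcp2* (−0.59), *Ncoa7* (−0.76), *Ifi203* (−0.59), *Elk1* (1.98), *Cd24a* (1.09), *Stx11* (1.09) and *Ciapin1* (0.65), with log2 fold changes in parentheses. None of the 107 changed sign. DESeq2 called 72 of the 107. Among genes called in all 4 fits but not by DESeq2 were *Il23r*, *Gm12534*, *Serpinb9* and *Rpph1* (adjusted p = 0.0523, 0.277, 0.311 and 0.474 by DESeq2). In 15 of the 107 genes exons overlap those of another tested gene, which could divide or add reads.

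**Figure D5:**
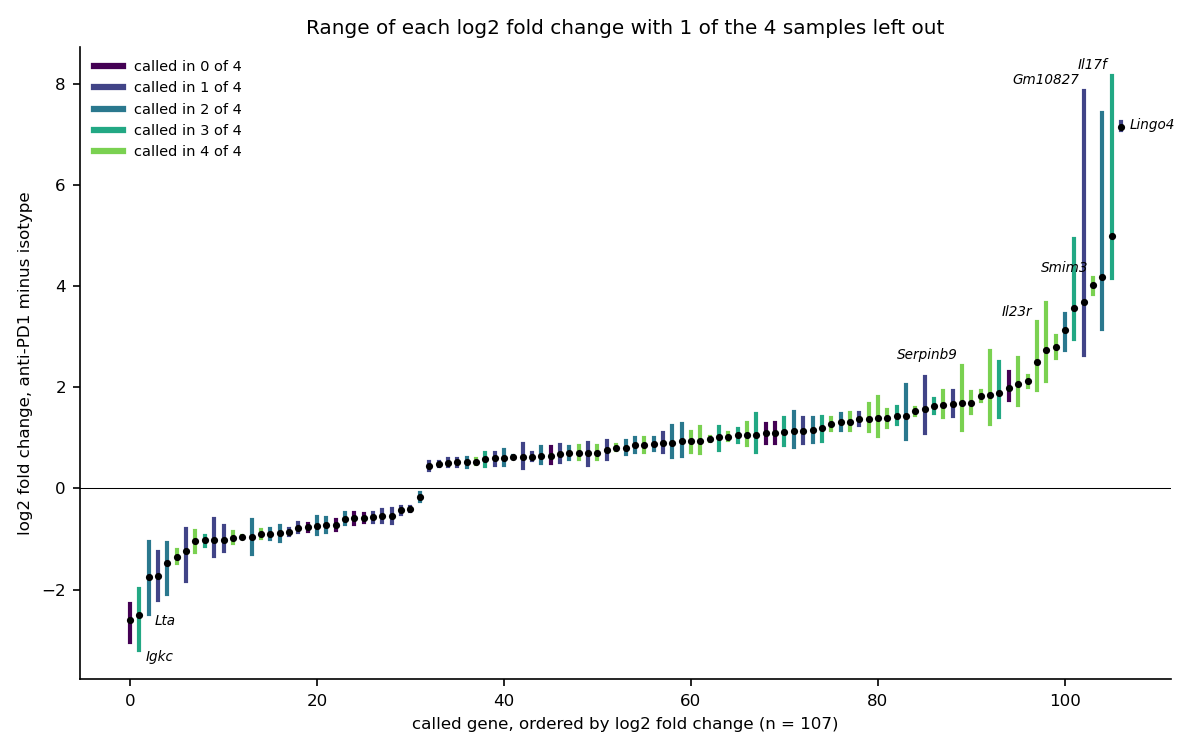
Log2 fold change (anti-PD1 minus isotype, points) of the 107 called genes in rank order with the range over 4 fits that left out an isotype or anti-PD1 sample (bars), colored by the number of those fits that called the gene. Bars stay on the same side of 0 for every gene and are longest for genes with few isotype reads, such as *Gm10827* (2.65 to 7.87) and *Il17f* (4.16 to 8.17).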

How the data were processed

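Reads were 3′ tags (QuantSeq 3′ FWD) of sorted cells from 6 samples, 2 per group. Per the labels and methods, the authors trimmed them with Bbduk, aligned them to GRCm38 with STAR 2.5.2a and made a count per gene with HTSeq, and these raw counts were deposited. A deposited table of regularized log values was not used. The strand setting and HTSeq version are not given in the sources used here. Since reads come from transcript ends, CPM was not corrected for length, and levels were compared between genes only to choose uncalled members to name.

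Genes with at least 10 reads summed over 6 samples (11877 of 47643) were tested with edgeR 4.0.16 (R 4.3.3), using TMM scaling, 1 fit of 3 groups and the quasi-likelihood test of anti-PD1 against isotype, two-sided, with Benjamini-Hochberg adjustment over all genes at 0.05. SE refers to the fitted log2 fold change. limma 3.58.1 and DESeq2 1.42.0, other scalings and filters, and leaving out samples were alternatives. On simulated counts with 200 genes changed by 1 on the log2 scale among 11877, edgeR called 66.5% of them and 4.32% of its calls were false. Coordinates come from GENCODE M21 (GRCm38) and promoters from RefSeq (GRCm38.p6), which matched 85 called genes.

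Named by rule were the 15 largest called rises and the 15 largest called falls, called members of lists, called genes in no list that were called in all 4 fits without a sample, the antibody targets, ligands and gated gene, and up to 3 uncalled members per list with the highest mean CPM. The other called genes, the neighbors *Gm4761*, *Serbp1*, *Tnf* and *Stat5b*, and markers with near 0 reads were named after their values were seen. The genes and lists were chosen with earlier results of these data known. Some genes that the rule names are not reported here.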

Additional observations from a re-analysis of the deposited data

How the results depend on the processing

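All 107 called genes kept their direction under every alternative that tested them. Calls numbered 72 with DESeq2 (19 lower), 102 with limma-voom, 100 with a filter by expression, 149 with genes from 1 read upward, 175 in a fit of the 4 compared samples alone (120 higher, 55 lower), and 166 at an adjusted p of 0.1 (54 lower). Leaving out 1 of the 6 samples gave from 53 to 185 calls, 42 to 122 higher and 11 to 63 lower. The fit with the replicate number as a block gave 144 calls, all 107 among them. The methods describe the left-out samples as a batch sorted and processed together, so a number may mark such a batch in the retained samples too, but the labels do not say so, and deviations of same-numbered samples from their group means correlated at 0.0356, 0.033 and −0.0553 over 7138 genes. Among genes not called, the log2 fold change of *Cd274* ranged from −0.51 to 0.37 with a sample left out (0.37 without isotype sample 1, 0.05 without anti-PD1 sample 1), and that of *Lag3* from −0.65 to 0.66 (−0.65 without anti-PD1 sample 1, −0.18 without isotype sample 1), with −0.011 in limma-voom. The cause of these moves was not tested. With 2 samples a group, genes with few reads carry wide errors.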
